A study of Mus musculus with 23 samples.

Results

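A set of 9 genes that act in the uptake of dying cells were followed in mouse brain: the TAM receptors Mertk, Axl and Tyro3, their bridging ligands Gas6 and Pros1, the receptor Megf10, and Mfge8 with the integrin subunits Itgav and Itgb5 that bind it. They were picked out by gene symbol, and all 9 of the 9 were found among 22310 named genes and passed the filter on low counts. The libraries were bulk RNA-seq of brain from C57BL/6J mice, either wild type (WT) or carrying Csf1R-G793A, a substitution in the receptor for colony-stimulating factor 1, on which microglia depend. The chow held PLX3397 at 290 mg/kg, PLX5622 at 1200 mg/kg, both being inhibitors of that receptor, or neither, and was given for 14 days. There were 4 libraries each of WT mice on PLX3397, WT mice on PLX5622, G793A mice on PLX3397, G793A mice on PLX5622 and G793A mice on control chow, and 3 of WT mice on control chow. The labels give no age, sex, brain region or batch and do not say that each library is a separate animal, so the p-values measure the spread between these libraries, which may be technical. In bulk tissue, fewer cells of a type and less RNA per cell cannot be told apart.

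Apoptotic cells expose phosphatidylserine on their surface. Gas6 and protein S, the product of Pros1, bind this lipid with one end and a TAM receptor tyrosine kinase with the other. Mfge8 binds the same lipid and bridges it to the integrins alpha-v beta-3 and alpha-v beta-5, whose subunits include the products of Itgav and Itgb5, while Megf10 is an engulfment receptor. In the mouse brain Mertk is used by microglia and astrocytes, Axl is known for its induction in activated microglia, Tyro3 is mainly neuronal, and Megf10 and Mfge8 are typical of astrocytes.

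Total counts per library were 26312685 to 48174788. Csf1r, the gene of the inhibited receptor, averaged 23.3 ± 5.13 CPM (counts scaled to a library of 1000000) in WT PLX3397 libraries, 12.2 ± 4.56 CPM in WT PLX5622 libraries and 93.8 ± 1.23 CPM in WT control libraries (SD, n = 4, 4 and 3). The level of Csf1r does not check the substitution itself. The summed level of 12 microglial markers, Csf1r included, was 96.5 to 137 CPM in WT PLX3397, 54.2 to 101 CPM in WT PLX5622, 303 to 359 CPM in G793A PLX3397, 292 to 362 CPM in G793A PLX5622, 341 to 429 CPM in G793A control and 403 to 428 CPM in WT control libraries. None of the markers was at 0 throughout a group. The cerebellar granule cell gene Cbln3 stood at 30.8 CPM in replicate 1 of WT PLX5622 and 220.5 CPM in replicate 2 of G793A PLX5622, against at most 1.73 CPM elsewhere, and the pituitary hormone gene Prl was at 66.1 CPM in the WT one. Replicate 3 of G793A control had the most Ttr, a choroid plexus gene, at 1076 CPM. No call among the 9 genes changed when the 2 libraries with cerebellar transcripts were left out.

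Of the 9 genes, 1 changed with the inhibitors in WT mice, and it was Itgb5 with both, where 1.49% of all genes tested fell with PLX3397 and 1.59% with PLX5622. It fell to 63.2% of the WT control level with PLX3397 and to 63.1% with PLX5622. On either inhibitor it was called higher in G793A than in WT mice. The call on PLX5622 was lost without replicate 2 or 3 of WT PLX5622. The change of Itgb5 with either inhibitor was not called different between genotypes. Pros1 stood at 78.9% and 80.9% of the WT control level without passing the test. The estimates for Mertk, Axl, Tyro3, Gas6, Megf10, Mfge8 and Itgav lay close to their WT control levels while Csf1r and other microglial genes dropped. This does not show that their levels were equal, and the intervals below, widest for Mertk and Mfge8, give the changes the data allow. A gene was called when its adjusted p was under 0.05 in edgeR's quasi-likelihood test, with the Benjamini-Hochberg adjustment over all 16209 genes tested.

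The upstream sequences of the beta-5 and alpha-v genes are given because the 2 genes encode partners of 1 integrin and their values parted. Each is the 250 bases before the transcription start in RefSeq (GRCm38.p6), 5′ to 3′ on the gene's strand. The capitals mark GAGGAA or its reverse complement TTCCTC, letters at the core of the element that the myeloid factor PU.1 binds. Itgb5 lies on the + strand at chr16:33829415-33829664, has a GC content of 65.2% and holds no match. Itgav lies on the + strand at chr2:83724147-83724396, has a GC content of 64.4% and holds 2 matches.
Itgb5: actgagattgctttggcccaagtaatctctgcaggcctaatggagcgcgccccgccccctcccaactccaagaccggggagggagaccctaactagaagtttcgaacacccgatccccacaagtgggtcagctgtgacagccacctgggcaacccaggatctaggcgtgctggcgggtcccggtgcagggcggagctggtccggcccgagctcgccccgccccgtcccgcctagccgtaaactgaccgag
Itgav: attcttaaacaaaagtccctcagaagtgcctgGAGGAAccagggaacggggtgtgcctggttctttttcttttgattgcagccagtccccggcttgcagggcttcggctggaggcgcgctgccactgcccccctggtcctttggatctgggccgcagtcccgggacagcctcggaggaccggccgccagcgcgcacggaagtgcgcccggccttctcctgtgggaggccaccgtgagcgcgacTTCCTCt
On either strand, 23.3% of the 32851 promoters of this length held the motif, and so did 3 of the 8 clearance genes that had a RefSeq entry. A match is a description of letters and not a site of binding.

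**Figure D1:**
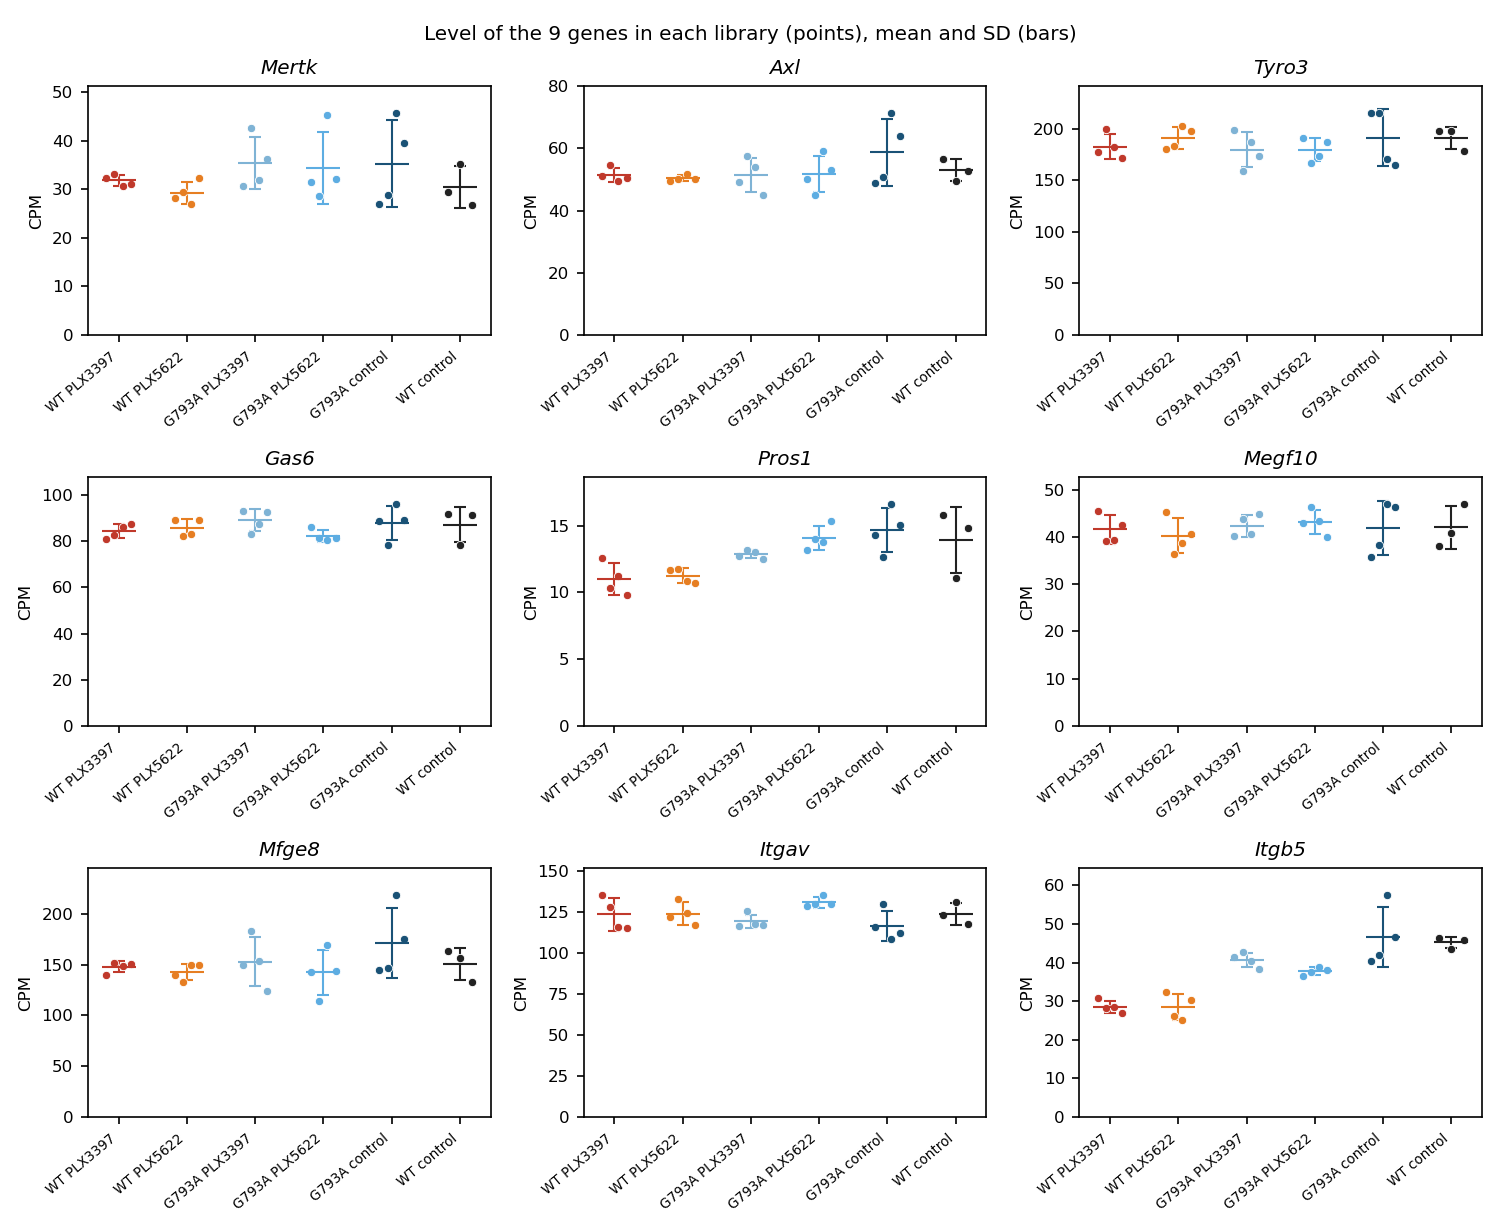
Levels of the 9 clearance genes in CPM (vertical axis, from 0) in the 6 groups. Points are libraries, and bars give the mean and SD. The WT PLX3397 and WT PLX5622 libraries lie apart from and below the WT control libraries for Itgb5.

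Among the TAM receptors, Mertk, the receptor most tied to engulfment by brain phagocytes, had 32.4, 33.1, 30.7 and 31.2 CPM in WT PLX3397 libraries, 28.3, 29.5, 26.9 and 32.4 CPM in WT PLX5622 libraries, and 29.5, 35.3 and 26.9 CPM in WT control libraries. The 3 groups overlapped. Its log2 fold change against WT control was 0.06 ± 0.17 with PLX3397 (SE, 95% interval -0.29 to 0.41, adjusted p = 0.962) and -0.06 ± 0.17 with PLX5622 (-0.41 to 0.29, adjusted p = 0.979, edgeR). A p above the threshold does not show that the levels were equal, and these intervals set the range of changes the data allow. Over the same libraries Csf1r changed by -2.01 ± 0.20 and -2.93 ± 0.21 on the log2 scale (adjusted p = 2.24e-06 and 1.57e-08, edgeR).

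Axl, an inducible TAM receptor, had 51.2, 54.8, 49.5 and 50.4 CPM in WT PLX3397, 49.5, 50.03, 51.8 and 50.2 CPM in WT PLX5622, and 56.7, 49.5 and 52.7 CPM in WT control libraries. The inhibitor libraries lay within or next to the control range, and the log2 fold changes were -0.04 (95% interval -0.26 to 0.18) and -0.07 (-0.30 to 0.15). Tyro3, the TAM receptor of neurons, had 177.3, 199.6, 182.1 and 171.9 CPM in WT PLX3397, 180.8, 183.5, 202.3 and 197.9 CPM in WT PLX5622, and 197.4, 197.4 and 178.7 CPM in WT control libraries. Its groups overlapped as well, with log2 fold changes of -0.07 (-0.25 to 0.12) and -0.00 (-0.18 to 0.18). None of the 3 receptors had an unadjusted p under 0.05 against WT control in any of the 5 other groups.

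Of the ligands, Gas6, which activates all TAM receptors, had 80.9, 82.5, 86.2 and 87.6 CPM in WT PLX3397, 89.1, 82.3, 83.2 and 89.0 CPM in WT PLX5622, and 91.8, 78.4 and 91.4 CPM in WT control libraries. Every inhibitor library lay inside the control range. Gas6 had log2 fold changes of -0.05 (95% interval -0.18 to 0.08) and -0.02 (-0.15 to 0.11).

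Pros1, the gene of protein S, a ligand of Mertk and Tyro3 and also an anticoagulant, had 12.6, 10.4, 11.2 and 9.8 CPM in WT PLX3397, 11.7, 11.8, 10.9 and 10.7 CPM in WT PLX5622, and 15.8, 11.1 and 14.8 CPM in WT control libraries. Replicate 2 of the controls lay among the inhibitor libraries, and the other control libraries lay above all of them. Its log2 fold change was -0.34 ± 0.10 with PLX3397 (SE, unadjusted p = 0.00311, adjusted p = 0.144) and -0.31 ± 0.10 with PLX5622 (unadjusted p = 0.00731, adjusted p = 0.243, edgeR). Without WT control replicate 2 both passed, at -0.48 (adjusted p = 0.00783) and -0.44 (adjusted p = 0.0150, edgeR). These 2 comparisons, like all others against WT control, share the same 3 control libraries.

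In G793A mice Pros1 had 12.7, 13.2, 13.04 and 12.5 CPM with PLX3397, 13.2, 14.0, 13.8 and 15.4 CPM with PLX5622, and 14.3, 12.7, 16.6 and 15.02 CPM on control chow. All 4 G793A PLX5622 libraries lay above all 4 WT PLX5622 libraries. The difference between those genotypes was 0.32 ± 0.10 on the log2 scale (SE, adjusted p = 0.202, edgeR) and was not called. The change of Pros1 with the inhibitors differed between genotypes by 0.16 ± 0.14 for PLX3397 and 0.25 ± 0.14 for PLX5622 (SE, adjusted p = 1.00 and 0.692, edgeR).

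Megf10, the astrocytic engulfment receptor, had 45.5, 39.1, 39.3 and 42.5 CPM in WT PLX3397, 45.2, 36.5, 38.7 and 40.7 CPM in WT PLX5622, and 38.1, 40.9 and 47.0 CPM in WT control libraries. The groups overlapped, with log2 fold changes of -0.02 (95% interval -0.21 to 0.18) and -0.06 (-0.25 to 0.13). Mfge8, the bridging protein secreted by astrocytes, had 140.2, 152.1, 148.8 and 150.8 CPM in WT PLX3397, 139.4, 133.2, 149.8 and 149.3 CPM in WT PLX5622, and 163.5, 156.8 and 133.4 CPM in WT control libraries. Its groups overlapped too, with log2 fold changes of -0.03 (-0.31 to 0.25) and -0.08 (-0.36 to 0.20). The summed level of 10 astrocyte markers was 5626 to 6161 CPM in WT PLX3397, 5115 to 5968 CPM in WT PLX5622 and 5302 to 5690 CPM in WT control libraries.

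The ratio of Mertk to the astrocytic genes within each library was compared over libraries. Mertk stood at 0.207 to 0.231 of the Mfge8 count in WT PLX3397, 0.180 to 0.222 in WT PLX5622 and 0.181 to 0.225 in WT control libraries. Relative to the Megf10 count it stood at 0.711 to 0.846 in WT PLX3397, 0.626 to 0.809 in WT PLX5622 and 0.572 to 0.861 in WT control libraries. The log2 ratio to Mfge8 differed from WT control by 0.10 with PLX3397 (two-sided exact permutation test, p = 0.4) and by 0.02 with PLX5622 (exact p = 0.971). The log2 ratio to Megf10 differed by 0.08 (exact p = 0.743) and 0.01 (exact p = 0.971), and all 4 tests had an adjusted p of 0.971. With 4 libraries against 3 there are 35 arrangements, and the two-sided p of this test cannot fall under 0.05. No difference could therefore pass in these 4 tests, and the ranges above only describe the ratios. Set against Csf1r, by contrast, Mertk stood at 1.14 to 1.83 of its count in WT PLX3397, 1.76 to 4.98 in WT PLX5622 and 0.290 to 0.378 in WT control libraries, and the inhibitor and control ranges did not overlap.

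**Figure D2:**
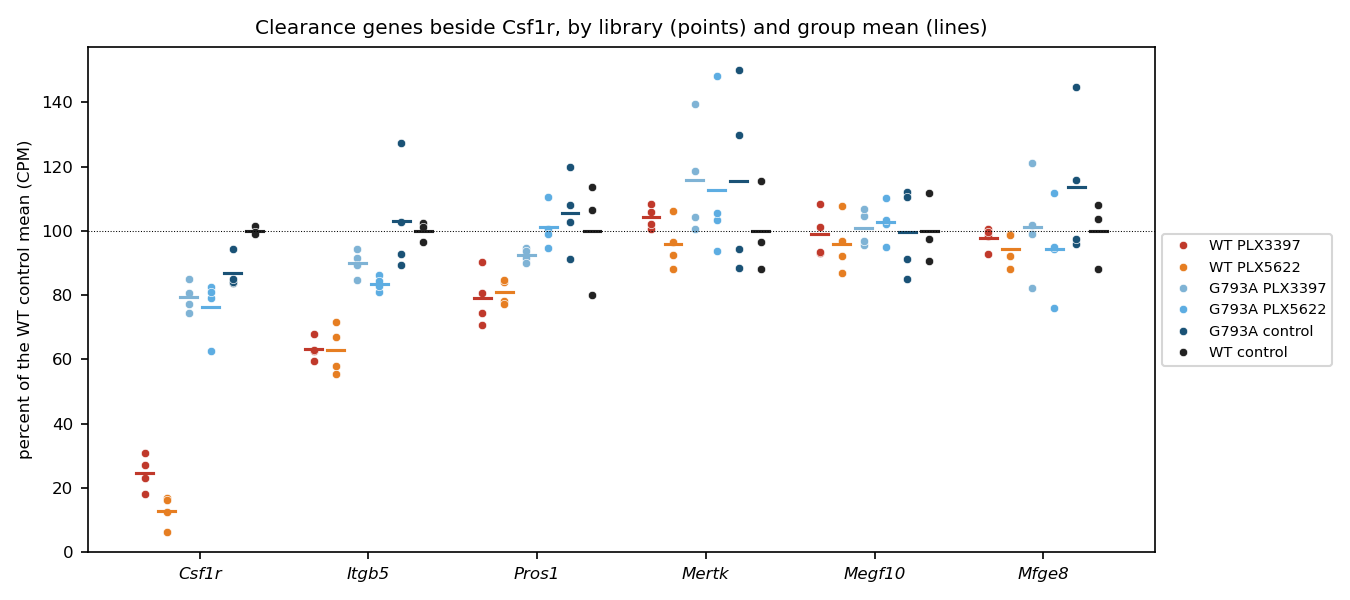
Csf1r and 5 clearance genes in each library (points) as a percent of the WT control mean CPM (vertical axis, from 0), with group means as lines, in the 6 groups. Csf1r is far lower in WT PLX3397 and WT PLX5622 libraries than in WT control libraries, Itgb5 is lower by less, and Mertk, Megf10 and Mfge8 spread around 100%.

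Itgav encodes the alpha-v subunit, which pairs with several beta subunits. It had 135.8, 128.0, 116.0 and 115.2 CPM in WT PLX3397, 122.0, 133.4, 124.7 and 117.0 CPM in WT PLX5622, and 123.1, 131.1 and 117.7 CPM in WT control libraries. The groups overlapped, with log2 fold changes of -0.00 (95% interval -0.14 to 0.13) and 0.00 (-0.13 to 0.14).

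Itgb5 encodes the beta-5 subunit, which pairs with alpha-v alone. It had 30.7, 28.3, 28.4 and 26.9 CPM in WT PLX3397, 32.4, 26.3, 25.1 and 30.3 CPM in WT PLX5622, and 46.3, 43.6 and 45.7 CPM in WT control libraries. All 8 inhibitor libraries lay below all 3 control libraries. The log2 fold change was -0.66 ± 0.09 with PLX3397 (SE, 95% interval -0.85 to -0.47, adjusted p = 5.54e-05) and -0.66 ± 0.09 with PLX5622 (-0.86 to -0.47, adjusted p = 4.04e-05, edgeR). It was also the 1 of 9 genes whose inhibitor libraries lay wholly below the control libraries, as was the case for 6.11% of all genes with PLX3397 and 5.25% with PLX5622. The doses of the inhibitors differ, so their values stand side by side and were not tested against each other. The median log2 fold change of the 9 genes was -0.04 with PLX3397 and -0.06 with PLX5622, beside 0.01 and 0.01 over all genes tested.

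Within the integrin pair, Itgb5 stood at 0.222 to 0.245 of the Itgav count in WT PLX3397, 0.197 to 0.265 in WT PLX5622, 0.326 to 0.355 in G793A PLX3397, 0.284 to 0.294 in G793A PLX5622, 0.322 to 0.530 in G793A control and 0.333 to 0.389 in WT control libraries. The ranges of both WT inhibitor groups lay below those of all other groups. Alongside Itgb5, 11 of the 12 microglial markers and 6 of 7 markers of border-associated macrophages were called lower in each WT inhibitor group. None of the 10 astrocyte, 7 endothelial, 6 mural, 6 oligodendrocyte and 6 neuronal markers was, nor was any of the 5 fibroblast, 4 oligodendrocyte precursor, 4 choroid plexus, 3 pituitary and 2 cerebellar markers tested. The part of these cells in the level of Itgb5 was not tested.

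In G793A mice Itgb5 had 41.4, 42.7, 40.4 and 38.3 CPM with PLX3397, 36.6, 37.5, 39.0 and 38.2 CPM with PLX5622, and 40.4, 41.9, 57.6 and 46.5 CPM on control chow. Every G793A library on an inhibitor lay above every WT library on the same inhibitor. The difference was 0.51 ± 0.09 on the log2 scale on PLX3397 (SE, adjusted p = 0.0010) and 0.40 ± 0.09 on PLX5622 (adjusted p = 0.0109, edgeR). Itgb5 was the 1 of 9 genes called higher in each, where 0.932% of all genes were on PLX3397 and 1.09% on PLX5622. The groups did not overlap for Itgb5 alone on PLX3397, beside 3.76% of all genes in this direction, and for Itgb5 and Pros1 on PLX5622, beside 2.49%. The call on PLX5622 was lost without replicate 2 of WT PLX5622 (0.37, adjusted p = 0.0713, edgeR) or replicate 3 (0.35, adjusted p = 0.0742, edgeR).

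Against the control groups, none of the 9 genes was called in G793A mice. In G793A PLX3397 the share of all genes called was 0.00617% against WT control and 0.00617% against G793A control. In G793A PLX5622 it was 0% against both, with 1095 and 2639 of 16209 genes at an unadjusted p under 0.05, and DESeq2 called 8 of 16190 and 313 of the 7095 genes that its filter left in each. All 8 G793A libraries on an inhibitor lay below all 3 WT control libraries for Itgb5, the 1 of 9 genes to do so, beside 4.1% of all genes with PLX3397 and 3.85% with PLX5622. The 4 G793A PLX5622 libraries also lay below the 4 G793A control libraries, again for Itgb5 alone of the 9, beside 2.86% of all genes. The log2 fold change of Itgb5 against WT control was -0.15 ± 0.09 with PLX3397 (SE, adjusted p = 0.764) and -0.26 ± 0.09 with PLX5622 (unadjusted p = 0.00978, adjusted p = 0.606, edgeR). Against G793A control it was -0.19 ± 0.09 (adjusted p = 0.393) and -0.30 ± 0.09 (unadjusted p = 0.00186, adjusted p = 0.154, edgeR). The last of these was called by DESeq2 (-0.30, adjusted p = 0.0404, over the 7095 genes) and without G793A control replicate 2 (-0.35, adjusted p = 0.0270, edgeR). The fit without that replicate called 980 of 16190 genes in this comparison.

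The genotype comparison on control chow called none of the 9 genes and 0% of all genes, with 1803 genes at an unadjusted p under 0.05. Itgb5 differed there by 0.04 ± 0.09 (SE) and Mertk by 0.21 ± 0.17. Replicate 3 of G793A control was the highest library of its group for 7 of the 9 genes, namely Mertk (45.8 CPM), Axl (71.5 CPM), Gas6 (96.2 CPM), Pros1 (16.6 CPM), Megf10 (47.0 CPM), Mfge8 (219.1 CPM) and Itgb5 (57.6 CPM). It was the lowest for Itgav (108.6 CPM), and it was the library with the most Ttr. Replicate 4 of WT PLX5622 came near it in Ttr, at 998 CPM. That library was the highest of its group for Mertk alone (32.4 CPM) and the lowest for Pros1 (10.7 CPM) and Itgav (117.0 CPM). The part of choroid plexus tissue in these values was not tested. How many of all genes were highest or lowest in either library was not counted, so these counts do not set the 9 genes apart. Over all groups the mean level of Itgb5 was 28.6 ± 1.56 CPM in WT PLX3397, 28.5 ± 3.39 in WT PLX5622, 40.7 ± 1.87 in G793A PLX3397, 37.8 ± 1.02 in G793A PLX5622, 46.6 ± 7.76 in G793A control and 45.2 ± 1.42 in WT control libraries (SD). The WT inhibitor groups were lowest, the G793A inhibitor groups came next and the control groups were highest, and within each of these pairs the libraries overlapped. G793A PLX3397 also overlapped G793A control.

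Whether the inhibitor effect differed between genotypes was tested by subtracting the log2 fold change of WT mice from that of G793A mice. For Itgb5 it was 0.47 ± 0.13 for PLX3397 (SE, unadjusted p = 0.00106, adjusted p = 0.143) and 0.36 ± 0.13 for PLX5622 (unadjusted p = 0.00827, adjusted p = 0.434, edgeR), so 0 of the 9 genes were called, beside 0.555% and 0.808% of all genes. Without replicate 3 of G793A control both passed, at 0.59 (adjusted p = 0.00254) and 0.48 (adjusted p = 0.0138, edgeR). For Csf1r the same difference was 1.88 ± 0.27 and 2.75 ± 0.27 (adjusted p = 0.000803 and 5.46e-06, edgeR).

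The other 8 genes in G793A mice on the inhibitors stayed within a log2 fold change of -0.27 to 0.17 against G793A control. The lowest was Mfge8 with PLX5622 (-0.27 ± 0.12, SE, unadjusted p = 0.0449, adjusted p = 0.296, edgeR). Mfge8 had 142.9, 114.8, 169.1 and 143.7 CPM in G793A PLX5622 and 145.3, 147.3, 219.1 and 175.3 CPM in G793A control libraries, and the groups overlapped. The highest was Itgav with PLX5622, with 128.6, 130.0, 135.6 and 129.8 CPM in G793A PLX5622 and 116.1, 130.0, 108.6 and 112.4 CPM in G793A control libraries. The difference for Itgav was 0.17 ± 0.06 (SE, unadjusted p = 0.0103, adjusted p = 0.184), and it was called without replicate 2 of G793A control (0.22, adjusted p = 0.0286, edgeR). In that fit 980 of 16190 genes were called. Mertk had 30.7, 42.6, 31.9 and 36.2 CPM in G793A PLX3397, 31.6, 28.7, 45.3 and 32.2 CPM in G793A PLX5622 and 26.99, 28.8, 45.8 and 39.7 CPM in G793A control libraries, a wider spread than in the WT groups.

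**Figure D3:**
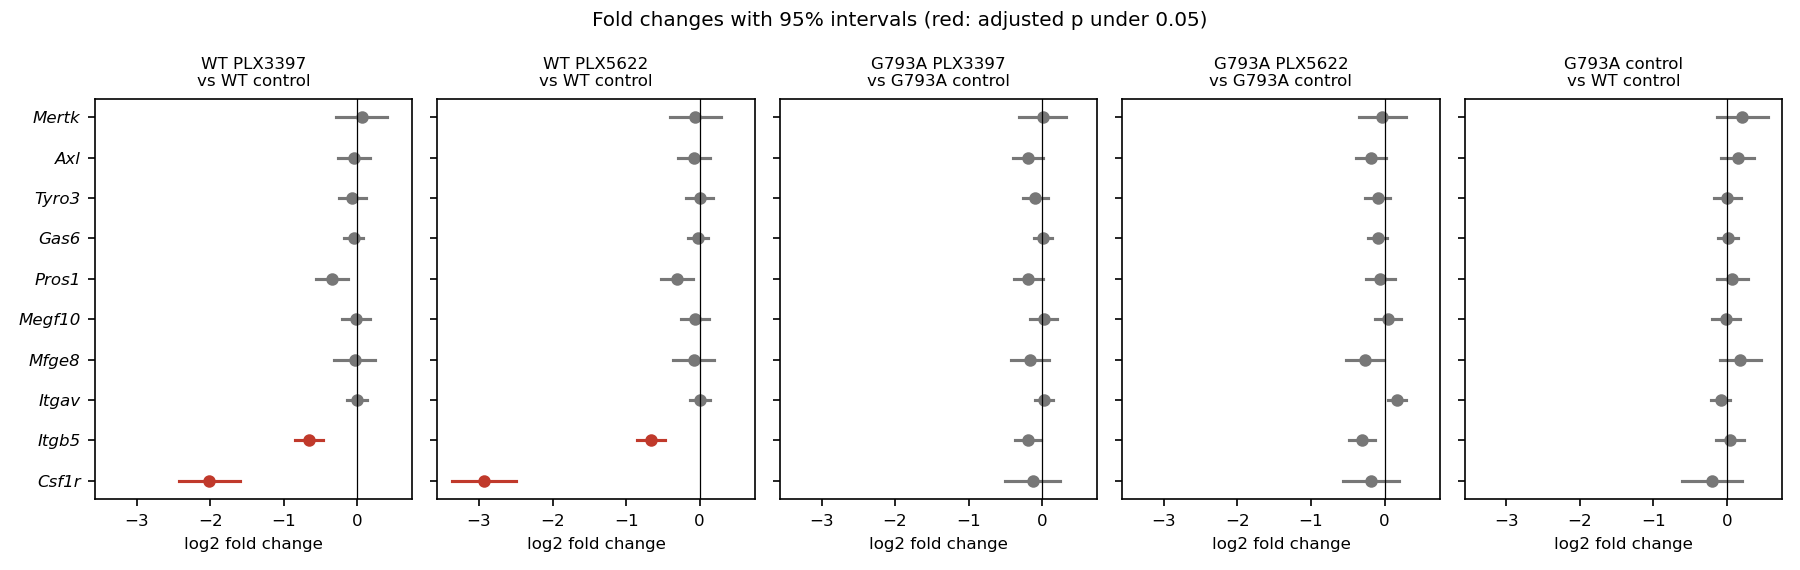
Log2 fold changes (points) with 95% intervals (lines) of the 9 clearance genes and Csf1r in 5 comparisons, on 1 horizontal scale, with red for an adjusted p under 0.05. Itgb5 and Csf1r are red in the WT inhibitor panels, and no gene is red in the other 3.

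Divided by transcript length, the WT control level was highest for Mfge8 (71.2 ± 7.43 CPM per kb, SD, n = 3) and Tyro3 (42.9 ± 2.42), followed by Gas6 (34.2 ± 3.00), Itgav (17.6 ± 0.95), Itgb5 (13.8 ± 0.43), Axl (12.4 ± 0.84), Mertk (7.10 ± 1.00), Megf10 (5.59 ± 0.60) and Pros1 (4.21 ± 0.75). Itgb5 with Axl and Mertk with Megf10 were neighbours whose WT control libraries overlapped, by a small margin. The other neighbours in this order did not overlap.

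Genes whose 5 log2 fold changes against WT control were most like those of Itgb5, out of 13954 genes at a mean of 1 CPM or more, were Ptgs1, Slc37a2 and Cmtm6, with mean absolute differences of 0.05, 0.06 and 0.06. Ptgs1, which encodes cyclooxygenase 1, had log2 fold changes of -0.57 and -0.74 in WT mice with PLX3397 and PLX5622, and -0.17 and -0.26 in G793A mice, all against WT control. Cmtm6, a membrane protein gene, had -0.52 and -0.62 in WT mice and -0.16 and -0.15 in G793A mice. Slc37a2, a sugar-phosphate transporter gene, had -0.70 and -0.74 in WT mice and -0.21 and -0.25 in G793A mice. Its WT changes had adjusted p = 0.0464 and 0.0262 (edgeR). Each call was lost in 6 of 7 fits that left out 1 library, and in 4 of 11 and 1 of 12 other alternatives. These values describe likeness over 6 groups that share 1 control.

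Beyond the 9 genes, 68 others of the clearance pathway were grouped by role, and 65 of them passed the filter on low counts. Of those 65, 9 were called lower and 0 higher in each WT inhibitor group. The share of all genes called lower was 1.49% with PLX3397 and 1.59% with PLX5622. The median log2 fold change of the 65 was -0.04 with PLX3397 and -0.05 with PLX5622, beside 0.01 and 0.01 over all genes tested. The highest log2 fold changes among other receptors and bridging molecules, 1.09 with PLX3397 and 1.23 with PLX5622, were not called. In the same list 7 of 18 tested were called lower with either inhibitor. Those with the smallest p with PLX3397 were Stab1, a scavenger receptor that binds phosphatidylserine (-2.10 ± 0.12 with PLX3397 and -2.44 ± 0.13 with PLX5622), Itgam, the alpha chain of complement receptor 3 (-2.36 ± 0.21 and -3.22 ± 0.22), C1qb, a chain of the complement opsonin C1q (-2.11 ± 0.23 and -2.82 ± 0.24), and Trem2, a lipid-sensing receptor (-1.61 ± 0.19 and -2.32 ± 0.20; SE). C1qa, C1qc and Cd300a, a phosphatidylserine receptor, fell as well. The calls of Cd300a were lost on variance-stabilised values with PLX3397 (adjusted p = 0.212) and PLX5622 (adjusted p = 0.237, limma), and with PLX3397 also in the fit of the compared groups alone (adjusted p = 0.0841, edgeR). Itgam is also 1 of the 12 microglial markers above.

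Of 15 engulfment adaptors, Vav1 alone was called. Vav1 encodes a signalling protein found mainly in blood-forming lineages. It had 0.89, 1.15, 0.61 and 0.76 CPM in WT PLX3397, 0.69, 0.31, 0.60 and 0.37 CPM in WT PLX5622, and 4.09, 3.98 and 2.72 CPM in WT control libraries. All inhibitor libraries lay below the controls (log2 fold change -2.07 ± 0.22 and -2.85 ± 0.24, SE, adjusted p = 1.43e-06 and 1.57e-08, edgeR).

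Of 8 find-me and don't-eat-me genes, P2ry6, a receptor for the nucleotide UDP that drives microglial phagocytosis, was the 1 called. It had 1.01, 1.261, 1.16 and 0.57 CPM in WT PLX3397, 0.88, 0.31, 0.94 and 0.57 CPM in WT PLX5622, and 2.00, 2.35 and 2.23 CPM in WT control libraries. Its log2 fold change was -1.13 ± 0.27 (SE, adjusted p = 0.0272) and -1.68 ± 0.28 (adjusted p = 0.000479, edgeR). With PLX3397 the call was lost without WT control replicate 1 (adjusted p = 0.0579), 2 (0.0994) or 3 (0.104), and without WT PLX3397 replicate 1 (0.0644) or 4 (0.117, edgeR). It was also lost in the fit of the compared groups alone (adjusted p = 0.0537, edgeR) and on variance-stabilised values (adjusted p = 0.0882, limma).

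No gene was called in the 3 remaining lists. Among 6 tested genes for other TAM ligands, ligand modification and receptor shedding, the smallest p belonged to Adam17, a sheddase of MerTK, with log2 fold changes of -0.30 ± 0.15 and -0.35 ± 0.15 (SE, adjusted p = 0.612 and 0.473, edgeR). Among 8 genes of phosphatidylserine exposure, Xkr6 was at 0.36 ± 0.26 with PLX3397 and the scramblase gene Ano6 at -0.14 ± 0.08 with PLX5622. Among 10 genes of lipid handling, the lipase gene Lpl was at 0.42 ± 0.14 with PLX3397 (unadjusted p = 0.00584, adjusted p = 0.225, edgeR) and the nuclear receptor gene Ppard at -0.20 ± 0.07 with PLX5622. Without WT control replicate 2, Lpl was called higher with PLX3397 (0.64, adjusted p = 0.00743, edgeR). In G793A mice on either inhibitor, 0 of the 65 genes were called against WT control or against G793A control by edgeR with all libraries. Stab1 was at -0.60 ± 0.12 with PLX3397 and -0.67 ± 0.12 with PLX5622 against WT control (SE, adjusted p = 0.117 and 0.118, edgeR). It was called lower there by limma-voom (adjusted p = 0.0331 and 0.0285) and DESeq2 (adjusted p = 0.00212 and 0.000401), and with PLX5622 also without WT control replicate 1 (-0.77, adjusted p = 0.0438, edgeR). Without G793A control replicate 2, Stab1 (-0.40, adjusted p = 0.0481) and Ppard (-0.24, adjusted p = 0.0341, edgeR) were called lower in G793A PLX5622 than in G793A control. In that fit 980 of 16190 genes were called, 438 of them lower. Against WT mice on the same inhibitor, 8 of the 65 were called higher in G793A mice on PLX3397 and 9 on PLX5622, and none was called lower (edgeR), beside 0.932% and 1.09% of all genes called higher. Of these calls, Cd300a on PLX3397 and P2ry6 on PLX5622 were lost on variance-stabilised values (adjusted p = 0.124 and 0.112, limma) and in the fit of the compared groups alone (adjusted p = 0.0845 and 0.140, edgeR). P2ry6 also lost it in 5 of 8 fits that left out 1 library (adjusted p = 0.0561 to 0.120, edgeR).

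**Figure D4:**
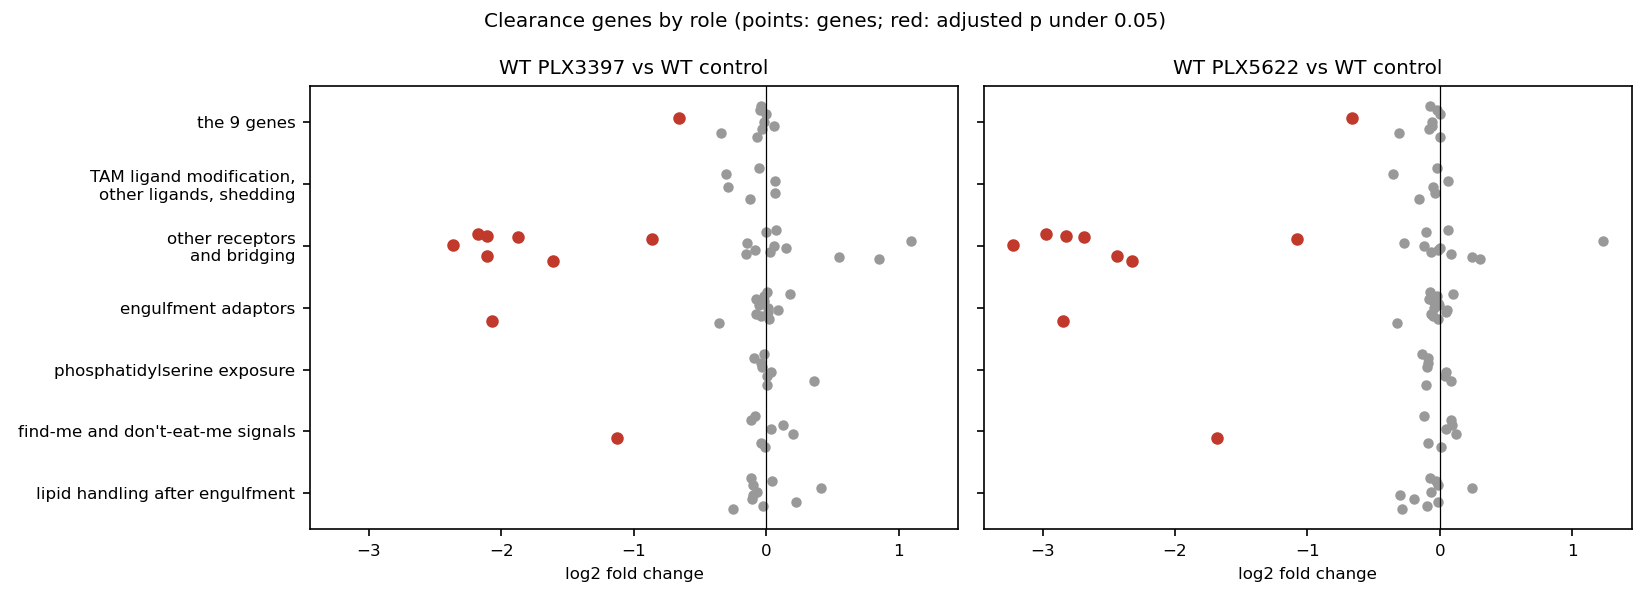
Log2 fold changes (horizontal axis) of the 9 genes and of 65 other clearance genes grouped by role, in WT PLX3397 and WT PLX5622 against WT control. Each point is a gene, and red marks an adjusted p under 0.05: 1 of the 9, 7 other receptors or bridging genes, 1 adaptor and 1 find-me gene in each panel.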

How the data were processed

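Brain RNA-seq from 23 libraries in 6 groups was analysed. Per the submitters' processing notes the authors used kallisto 0.46.1 with the GRCm39 build, besides FastQC 0.11.9 and DESeq2 1.26.0. The deposited gene table holds estimated counts, of which 45.3% of values were not whole, and these were rounded. A second deposited table holds log2 variance-stabilised values, used only as an alternative. An unnamed entry with 0.00828% to 0.0151% of counts was left out. The sources used here state no strand setting for the counting.

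The main test was edgeR 4.0.16 (R 4.3.3), a robust quasi-likelihood fit of all 23 libraries with 1 term per group, TMM scaling and filterByExpr (minimum count 10, minimum total 15), two-sided, over 11 comparisons. On data simulated for WT PLX3397 against WT control it recovered 75% of 100 log2 changes of 0.66 in size. Of 100 changes of 2.0 in size it recovered 98%, and 9 calls over 16097 genes were false. Smaller changes were not simulated. CPM were computed with TMM library sizes, and standard errors from the F statistic. Ratios used counts plus 0.5 and an exact permutation test (SciPy 1.17.1). Transcript lengths came from GENCODE M21 (longest coding transcript, 99.4% of genes matched by symbol), so per-kb levels are approximate. Libraries held 26312685 to 48174788 counts, and no 2 libraries agreed within sampling noise. Alternatives were RLE scaling, other filters, a fit that was not robust, the replicate block, a length and GC correction, limma 3.58.1, DESeq2 1.42.0, the compared groups alone and each library left out.

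The 9 genes were named in every group. Named from the other clearance lists were up to 4 called genes per list with the smallest p in each WT inhibitor comparison, any called in a G793A comparison and, for lists with none, the gene with the smallest p. For a called member, the 3 most similar genes were named. Members, gene lists, marker lists and tests were chosen with earlier results of these data known.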

Additional observations from a re-analysis of the deposited data

Results flagged for a closer look

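The highest library of a group stood far from the others for 2 of 45 gene and group combinations of 4 libraries, where chance flags about 1 in 20. Gas6 was at 86.2 CPM in replicate 1 of G793A PLX5622, and the other 3 libraries lay between 80.4 and 81.3 CPM. Itgav was at 125.5 CPM in replicate 2 of G793A PLX3397, and the other 3 lay between 116.8 and 117.7 CPM.

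The change with an inhibitor in G793A mice, less the change in WT mice, passed the threshold (edgeR, adjusted p under 0.05) for several named clearance genes outside the 9 and for Csf1r. Of the 65 such genes tested, 7 passed for PLX3397 and 9 for PLX5622, beside 0.555% and 0.808% of all genes. Most were named because they were called in these or the other comparisons, so their passing is no separate result. For PLX3397 the log2 difference was 1.88 for Csf1r, 1.80 for Stab1, 2.05 for Itgam, 1.87 for C1qb, 1.44 for Trem2, 1.93 for C1qa, 1.67 for C1qc and 1.84 for Vav1. For PLX5622 it was 2.75 for Csf1r, 2.07 for Stab1, 3.04 for Itgam, 2.41 for C1qb, 1.95 for Trem2, 2.58 for C1qa, 2.32 for C1qc, 1.36 for Cd300a, 2.81 for Vav1 and 1.63 for P2ry6. The PLX5622 difference of P2ry6 was lost in 11 of 15 fits that left out 1 library (adjusted p = 0.0529 to 0.0939), in the fit of the compared groups alone (adjusted p = 0.0538, edgeR) and on variance-stabilised values (adjusted p = 0.139, limma). That of Cd300a was lost on variance-stabilised values (adjusted p = 0.720, limma).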

How the results depend on the processing

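Of 2006 alternative values of the 9 genes' log2 fold changes, 1844 kept their direction and side of the threshold, 153 changed sign without being called, 7 passed the threshold anew and 2 lost it. Itgb5 stayed called in both WT inhibitor comparisons under every alternative run, at -0.67 to -0.51 with PLX3397 and -0.73 to -0.51 with PLX5622; leaving out 1 library gave -0.71 to -0.63 and -0.73 to -0.61. The count of called members changed with DESeq2, to 1 for G793A PLX5622 against G793A control, beside 313 of 7095 genes. Leaving out 1 library gave 1 to 2 called members for each WT inhibitor comparison, 0 to 2 for G793A PLX5622 against G793A control, 0 to 1 for each difference between genotypes in the inhibitor effect and 0 to 1 for G793A PLX5622 against WT PLX5622. The 2 for G793A PLX5622 against G793A control were Itgb5 and Itgav without G793A control replicate 2, where 980 of 16190 genes were called. Without WT control replicate 2, 216 and 253 of 16383 genes were called in the WT inhibitor comparisons. Without G793A control replicate 3, 93 and 144 of 16206 genes were called for the differences between genotypes. For G793A PLX5622 against WT PLX5622 it was 155 of 16200 without WT PLX5622 replicate 2 and 175 of 16193 without replicate 3. With 1 library left out, the log2 ratios were again taken as differences from WT control. For Mertk to Mfge8 the difference ranged over 0.02 to 0.17 with PLX3397 and -0.057 to 0.10 with PLX5622. For Mertk to Megf10 it ranged over -0.091 to 0.20 and -0.17 to 0.13. The causes were not tested.

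Counts over all genes moved by more than 1.5 times as follows. For G793A PLX3397 against WT control, 1 gene became 2 with RLE scaling, no filter, a filter at 1 CPM or variance-stabilised values, 3 with limma-voom, 26 with DESeq2, and 0 with the replicate block, the length and GC correction or the groups alone. For G793A PLX5622 against WT control, 0 became 1 with either limma fit, 8 with DESeq2 and 3 with the groups alone. For G793A PLX3397 against G793A control, 1 became 28 with DESeq2 and 0 with variance-stabilised values or the groups alone, and for G793A PLX5622 against G793A control 0 became 313 with DESeq2, which left 7095 genes after its own filter there and 16190 in the other comparisons. For the PLX3397 difference between genotypes, 90 became 58 with variance-stabilised values. Without G793A control replicate 2 there were 375 calls for G793A control against WT control, 23 for G793A PLX3397 and 980 for G793A PLX5622 against G793A control. For G793A PLX3397 against WT control there were 0 without WT control replicate 2 or 3, 2 without G793A PLX3397 replicate 1 and 4 without its replicate 3. For G793A PLX3397 against G793A control there were 0 without G793A control replicate 4 and 2 without G793A PLX3397 replicate 1, 2 or 3. For G793A PLX5622 against WT control there was 1 without WT control replicate 1.

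No pairing by replicate number was seen in the median correlation of deviations, which was 0.00553 over 55 same-numbered pairs and 0.0015 over 165 others. These medians cannot exclude a factor shared by some pairs or acting on some genes. With the replicate block the calls became 214 and 249 in the WT inhibitor comparisons, against 247 and 269 without it. The lowest of the 9 genes, Pros1, had 328 to 614 counts per library, and P2ry6 had 20 to 47 counts in WT PLX3397, 9 to 32 in WT PLX5622 and 71 to 90 in WT control libraries.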
